A study of Mus musculus with 2 samples.

Results

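The Id family comprises Id1, Id2, Id3 and Id4, proteins that carry a helix-loop-helix dimerisation domain but no basic DNA-binding region. They pair with the ubiquitous E proteins and so keep these from forming DNA-binding dimers with tissue-specific basic helix-loop-helix (bHLH) factors, which drive neuronal differentiation in the forebrain. Id genes are direct targets of bone morphogenetic protein (BMP) signalling through the transcription factors SMAD1 and SMAD5. In neural precursor cells they are known for holding back neurogenesis, and Id2 and Id4 also for holding back oligodendrocyte differentiation.

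The members were the probe sets annotated with a single gene symbol among these 4 names. This gave 4 probe sets, 1 per gene, of 28944 probe sets in all and 21789 with a single symbol. Total RNA came from neural precursor cells of the forebrain of Jcl:ICR mouse embryos at stage E11.5, which had received either a control retrovirus or a retrovirus carrying HMGN1, a nucleosome-binding chromatin protein. Both cultures were infected while FGF2 and EGF were present, replated after 3 days and then kept for 1 day without either factor. Each virus was represented by 1 whole-transcript array, so there was no replicate check, no test between the viruses was possible and the number of arrays limits the precision. The promoter of the viruses, the share of infected cells and the number of embryos pooled are not stated in the labels.

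Deposited intensities were analysed as log2(intensity + 16), and each difference is HMGN1 virus minus control virus on this scale and is compressed for dim genes. A gene counted as detected when the mean of its brightest probe set reached an intensity of 85.9, under which 95% of the olfactory receptor probe sets lay, and 11325 of 19938 genes did so. The median difference of the detected genes was 0.027 and their SD was 0.111. Differences of separate probe sets of 1 gene scattered with an SD of 0.0891 over 683 genes, a measure that leaves out variation between cultures, RNA preparations and whole arrays. Hmgn1 itself read 230 on the control array and 348 on the HMGN1 array, a difference of 0.57. All 8 listed neural precursor markers were detected, 3 of them higher with the HMGN1 virus and 5 lower, beside 60.1% and 38.4% of all detected genes. The median of the 8 was -0.016. Nes read 304 and 295 and Sox2 2422 and 2444 on the control and HMGN1 arrays. The lowest differences were those of Sox1 at 601 and 467 (-0.35) and Prom1 at 202 and 169 (-0.24). Pax6 was highest at 526 and 570 (0.11), and the brightest markers, Fabp7 and Vim, differed by -0.019 and 0.013.

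As Id genes are textbook BMP targets, the proximal promoters of the members found in the RefSeq promoter table, those of Id2, Id3 and Id4 (build GRCm38.p6), are shown for the motifs they do and do not share. Each sequence gives the 250 bases before the annotated start, 5′ to 3′ on the gene's strand. Capitals mark GGCGCC, the palindromic motif bound by SMAD1 and SMAD5, and CCAAT, the motif of the factor NF-Y, or its reverse complement ATTGG. The stretches are chr12:25096093-25096342 on the minus strand for Id2, chr4:136143572-136143821 on the plus strand for Id3 and chr13:48260866-48261115 on the plus strand for Id4.
Id2: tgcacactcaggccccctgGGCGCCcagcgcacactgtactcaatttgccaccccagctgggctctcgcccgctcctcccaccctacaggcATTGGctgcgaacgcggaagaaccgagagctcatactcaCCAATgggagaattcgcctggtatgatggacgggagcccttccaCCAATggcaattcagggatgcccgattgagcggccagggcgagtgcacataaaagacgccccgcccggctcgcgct
Id3: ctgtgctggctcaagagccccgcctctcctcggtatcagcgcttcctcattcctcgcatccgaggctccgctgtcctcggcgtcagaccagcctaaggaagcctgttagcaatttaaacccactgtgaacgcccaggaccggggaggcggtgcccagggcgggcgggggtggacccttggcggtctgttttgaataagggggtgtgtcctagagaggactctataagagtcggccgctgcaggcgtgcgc
Id4: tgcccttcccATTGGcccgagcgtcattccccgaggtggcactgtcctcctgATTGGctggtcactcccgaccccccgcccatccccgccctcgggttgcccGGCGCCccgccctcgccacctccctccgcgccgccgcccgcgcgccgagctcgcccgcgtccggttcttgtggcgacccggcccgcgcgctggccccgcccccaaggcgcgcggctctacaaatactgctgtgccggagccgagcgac

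The promoters of Id2 and Id4 each held 1 GGCGCC, 231 bases before the start in Id2 and 148 in Id4, whereas that of Id3 held 0. Of 32851 promoter windows of the same length in the table, 9.59% held this motif on either strand. CCAAT was present 3 times in Id2, 2 times in Id4 and 0 times in Id3, against at least 1 copy in 33.8% of all windows. The E-box CANNTG, the general bHLH binding motif, occurred 1 time in Id2, as CAGCTG, and 0 times in Id3 and Id4, and 66.2% of all windows held at least 1. None of these motif matches overlapped another. All 3 windows were rich in G and C, at 62.8% in Id2, 62.8% in Id3 and 75.6% in Id4, with a median of 52.4% over all windows. GGCGCC is made of G and C alone, and its share over all windows was not matched for this content. Sites outside these windows were not read. These matches describe letters in a window and say nothing of binding in these cells.

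All 4 Id genes were detected in both cultures, and none reached a log2 difference of 0.32 in either direction. Their differences ran from -0.12 for Id2 to 0.10 for Id1. Of the 4 members, 2 were higher with the HMGN1 virus, 1 was lower and 1 had the same value on both arrays. Among all detected genes 60.1% were higher, 38.4% lower and 1.48% equal at any size. With only 4 members, the split within the family cannot be called close to or far from these shares. At 1.5-fold on the offset scale, 0 of 4 members were higher or lower, beside 0% of detected genes higher and 0.0706% lower. On that scale Hmgn1 was 1.48-fold higher, and without the offset 1.515-fold. At a log2 difference of 0.32 the members again numbered 0 in either direction, beside 0.494% higher and 0.521% lower. The family median was 0.022 and that of all detected genes 0.027. With 4 members the family median rests on the middle values, those of Id3 at 0 and Id4 at 0.045.

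**Figure D1:**
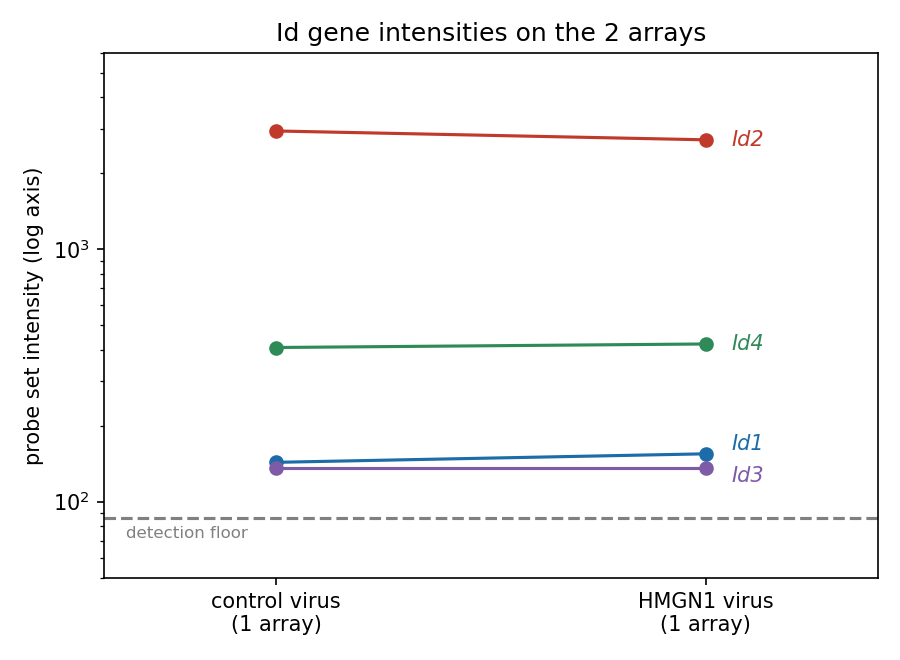
Probe set intensity (log axis) of Id1, Id2, Id3 and Id4 on the control virus array and on the HMGN1 virus array; each point is 1 array, lines join the values of 1 gene and the dashed line is the detection floor of 85.9. The lines are nearly level, with Id2 sloping down from 2945 to 2717 and Id1 up from 143 to 155; heights of different genes come from different probes and are not to be compared.

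Id2, which antagonises E proteins and can also bind the retinoblastoma protein, had the largest absolute difference of the family on the log2 scale used here. This rank depended on the processing. With the trend over gene span removed, Id1 was at 0.15 and Id2 at -0.092. The Id2 probe set read 2945 on the control array and 2717 on the HMGN1 array, which was the lower of the pair. The difference of -0.12 corresponds to 0.923 of the control level, or a change of -7.75% without the offset, and is 1.30 times the SD between probe sets of 1 gene, in the negative direction. Of the detected genes, 9.77% had a lower value, and 28.1% differed by more in either direction. The Id2 signal was 32.9 times the detection floor, in the brightest of 4 equal bins of detected genes, where differences had an SD of 0.0995. In bulk RNA, fewer cells of a type and less RNA per cell cannot be told apart.

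Id1, which is strongly induced by BMP in precursor cells, differed in the opposite direction. The probe set read 143 on the control array and 155 on the HMGN1 array, a difference of 0.10 or 1.07-fold. Without the offset the change was 8.09%. A larger absolute difference was found for 34.5% of detected genes. The probe set lay at 1.73 times the floor, and in its intensity bin, from 143 to 244, the SD of the differences was 0.112, larger than the Id1 value itself.

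Id3, a close relative of Id1 that shares much of its expression in the embryonic brain, stood at 136 on both arrays. The deposited values were identical to the last digit, so the difference was 0, a property shared by 168 detected genes or 1.48%. How identical values arose in the authors' processing is not stated, and a value of 0 therefore does not measure how alike the cultures were. Id3 was also near the floor, at 1.58 times its intensity, in the dimmest bin of detected genes, where the SD was 0.125.

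Id4, which is needed for normal expansion and timely differentiation of forebrain precursors in the mouse, read 408 on the control array and 422 on the HMGN1 array. The difference of 0.045 was 0.502 times the SD between probe sets of 1 gene, and 67.3% of detected genes differed by more. Relative to the median of all detected genes it was 0.018 higher.

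**Figure D2:**
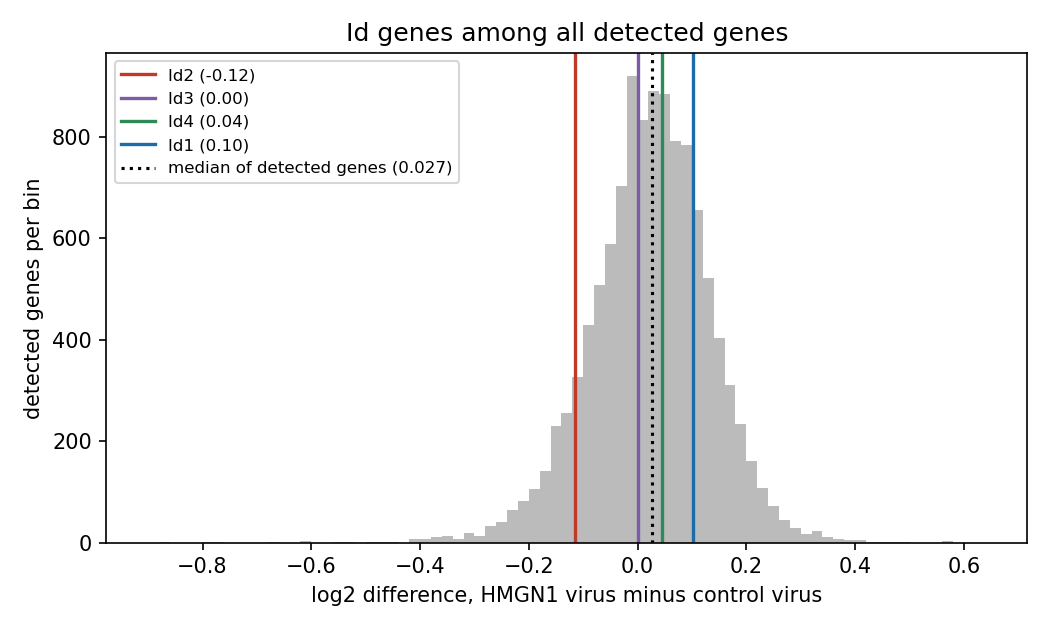
Histogram of the log2 difference, HMGN1 virus minus control virus, over the 11325 detected genes (grey, number of genes per bin), with a vertical line for each Id gene and a dotted line at the median of 0.027. Id3 and Id4 lie near the centre, Id1 at 0.10 on the upper shoulder and Id2 at -0.12 on the lower one, all far inside the range of the detected genes.

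The differences of Id1 and Id2 lay 0.22 apart, the widest gap among the 6 pairs of members. The scatter of a gap between separate probe sets of 1 gene would be 0.126 (SD) by the value above, and this pair was picked for its gap. The Id1 difference exceeded that of Id3 by 0.10, and the Id2 difference minus that of Id4 was -0.16. With 1 probe set for each gene, no second probe set was there to check any of these values.

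Id genes are short, and on these arrays the difference varied with gene span, the distance from annotated start to end. The spans were 1.16 kb for Id1, 1.57 kb for Id3, 2.29 kb for Id2 and 4.91 kb for Id4. In the shortest of 10 equal bins of 10882 detected protein-coding genes, which held Id1, Id2 and Id3, the median difference was -0.027 and 59.0% of genes were lower with the HMGN1 virus. Values under that of Id2 were found for 20.8% of this bin and for 4.96% of the longest bin. With the span trend removed, Id2 differed by -0.092, Id1 by 0.15, Id3 by 0.035 and Id4 by 0.050. The part of gene span in the Id2 value was not tested further.

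**Figure D3:**
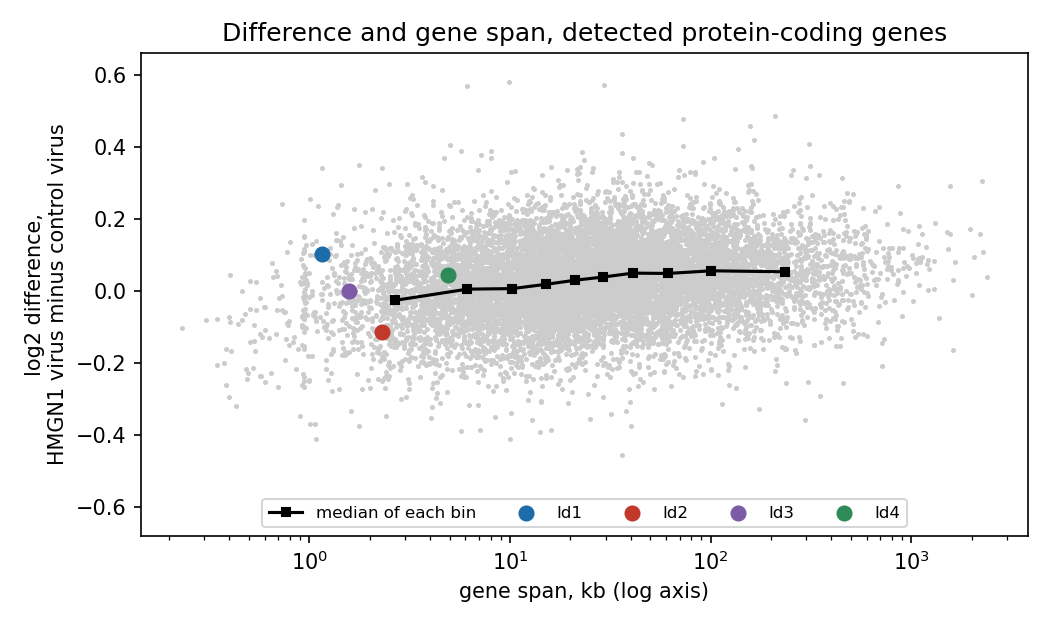
Log2 difference, HMGN1 virus minus control virus, against gene span in kb (log axis) for 10882 detected protein-coding genes (grey points), with the medians of 10 equal bins by span (black squares) and the Id genes in colour. The medians run from -0.027 in the shortest bin to 0.053 in the longest, and Id1, Id2 and Id3 lie in the shortest bin, on both sides of its median.

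The E proteins, the direct partners of the Id proteins, were close to their control values. Tcf3, which encodes E2A, was at 586 and 565 (difference -0.052), Tcf4, which encodes E2-2, at 2476 and 2559 (0.047), and Tcf12, which encodes HEB, at 2388 and 2358 (-0.018). All 3 differences were smaller than the probe set SD of 0.0891, and their median was -0.018.

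The tissue-specific bHLH factors whose action Id proteins limit went both ways. Of 15 listed factors 13 were analysed here, 7 were detected. With the HMGN1 virus 3 of these were higher and 4 lower, beside 60.1% and 38.4% of all detected genes. At a log2 difference of 0.32 they numbered 0 in either direction, beside 0.494% of all detected genes higher and 0.521% lower. The median of the 7 was -0.016. Neurod6, a factor of young cortical projection neurons, was highest at 161 and 193 (0.24). Olig2, a factor of motor neuron and oligodendrocyte progenitors, was lowest at 1427 and 1272 (-0.16). A list of Hes and Hey factors, which also held Helt, Bhlhe40 and Bhlhe41, gave a median of 0 over 7 detected of 10 listed genes. Of the 7, 3 were higher, 3 lower and 1 equal, beside 60.1%, 38.4% and 1.48% of all detected genes. In that list Bhlhe40 was highest at 149 and 163 (0.12) and Helt lowest at 104 and 92.7 (-0.14).

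Genes of the BMP pathway upstream of the Id genes were mostly higher with the HMGN1 virus, at small sizes. Of 18 listed ligands, receptors, SMADs and antagonists 14 were detected, 11 were higher and 3 lower, beside 60.1% and 38.4% of all detected genes. The list pools antagonists with genes that carry the signal, so this count gives no direction for BMP signalling. The median difference of the 14 was 0.068, against 0.027 for all detected genes. It was 0.041 after centring, which sets the median of all detected genes to 0, and 0.036 with the gene span trend removed. Several members are long genes, among them Bmpr2 at 114 kb, Acvr1 at 120.4 kb and Bmpr1b at 332 kb. The ligand Bmp4 was highest, at 229 and 302 (0.38), and was the only detected member beyond a log2 difference of 0.32. The receptor gene Acvr2b was lowest, at 207 and 202 (-0.034). Smad1 and Smad5, which carry the signal to Id promoters, differed by 0.053 and 0.083.

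Other genes that SMAD1 and SMAD5 are known to activate were dim in these cells. Of 7 listed targets 3 were detected, namely the inhibitory SMAD gene Smad7 at 115 and 118 (0.035), the pseudoreceptor gene Bambi at 105 and 104 (-0.015) and the bHLH gene Atoh8 at 96.3 and 101 (0.053). Under the floor were the inhibitory SMAD gene Smad6 (67.1 and 71.9, difference 0.080), Smad9 (87.3 and 82.7, -0.067) and the homeobox genes Msx1 (79.3 and 72.2, -0.11) and Msx2 (47.5 and 42.7, -0.11). The detected median was 0.035, and that of all 7 was -0.015.

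**Figure D4:**
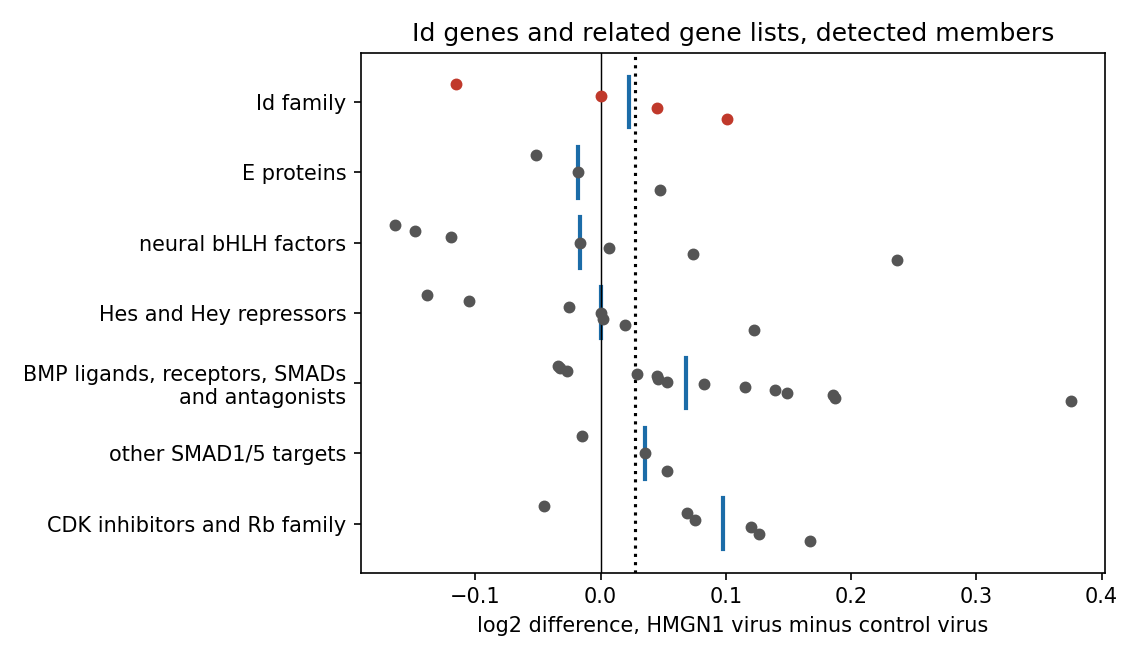
Log2 difference, HMGN1 virus minus control virus, of the detected members of the Id family (red) and of 6 related gene lists (grey); each point is 1 gene, blue bars are list medians, the solid line is 0 and the dotted line the median of all detected genes. The Id family and the bHLH lists spread around 0, and the BMP pathway list lies mostly above it, up to Bmp4 at 0.38.

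Id genes are also expressed in astrocytes, blood vessels and mesenchyme, so markers of these cells were read beside them. Of 10 astrocyte markers 9 were detected, 8 of them higher and 1 lower, beside 60.1% and 38.4% of all detected genes. The median of these markers was 0.15, against 0.027 for all detected genes. Intensities summed over all 10 were 6992 on the control array and 7620 on the HMGN1 array. Such sums, here and below, are led by the brightest probe sets and do not measure cell content. Both members beyond 0.32 were higher with the HMGN1 virus, a size and direction found for 0.494% of all detected genes. They were the intermediate filament gene Gfap at 406 and 615 (0.58) and the water channel gene Aqp4 at 187 and 237 (0.32). Single astrocyte markers ran from 81.1 to 1650 on the control array and from 82.2 to 1846 on the HMGN1 array. The part of astrocyte content in the Id values was not tested. Of the 10 endothelial markers 0 were detected, with intensities of 38.5 to 73.3 and 37.1 to 70.5. Mesenchyme and pericyte markers were detected for 5 of 10 genes (median -0.039, sums of 877 and 871), choroid plexus markers for 2 of 5 (median -0.037, sums of 537 and 536) and microglia markers for 2 of 7 (median -0.026, sums of 454 and 431). These medians cover the detected markers, whereas the sums cover all listed ones. Over all listed markers the medians were 0.047, 0 and -0.059 in the same order.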

How the data were processed

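The table deposited by the authors holds processed 1-colour intensity values on a linear scale for 28944 probe sets on 2 arrays, 1 per virus. Total RNA was labelled with biotin for whole-transcript GeneChip arrays, per the labels. Background correction, normalization and summarization are not given in the sources used here, and no further normalization was applied. Array medians were 101 and 98.8. Gene symbols were those of the platform annotation in GEO, and spans and biotypes from RefSeq (GRCm38.p6), where all 4 members matched by gene number. The deposited table names no genome build.

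Each gene took its brightest probe set. Differences were taken on log2(intensity + 16). A single array for each virus leaves no residual degrees of freedom, so p-values were not computed and genes were counted at 1.5-fold and at a log2 difference of 0.32.

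The members and lists were chosen with earlier results of these data known. Named were the members, Hmgn1, all E proteins, SMAD targets and genes of Id protein turnover, and of each other bHLH, BMP or cell cycle list the highest, the lowest and any detected gene beyond 0.32. Smad1, Smad5, Nes and Sox2 were added for their roles. Sox1, Prom1, Pax6, Fabp7, Vim, Gfap, Aqp4, Bmpr1b, Bmpr2, Acvr1, Rb1, Rbl1 and Rbl2 were added after their values were seen. Over 2 arrays a pattern is a single difference, so no gene was named for likeness. Some listed genes were not analysed here. Alternatives were quantile normalization, centring, removal of intensity and span trends by lowess (span 0.3), offsets of 1 and 64, probe set means, other floors and probe sets of several genes. Code (Python 3.11.15, statsmodels 0.14.6) was tested on simulated data.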

Additional observations from a re-analysis of the deposited data

How the results depend on the processing

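Over 7 alternatives the Id1 difference ran from 0.074 to 0.15, that of Id2 from -0.14 to -0.092, that of Id3 from -0.027 to 0.035 and that of Id4 from 0.0074 to 0.050. Id1, Id2 and Id4 kept their sign in all 7, but not every alternative was able to change it. Another offset keeps the order of the arrays, and probe set means change nothing for members with 1 probe set each. The signs of Id1, Id2 and Id4 could change under quantile normalization, centring and removal of intensity or span trends, and they held there. No member moved by as much as the SD between probe sets of 1 gene. The family median ran from -0.0048 to 0.043 and was below 0 after centring and after removal of the intensity trend. The BMP pathway median ran from 0.036 with the gene span trend removed to 0.071 after quantile normalization. Medians of the neural bHLH list (-0.044 to 0.0086) and the SMAD target list (-0.015 to 0.056) changed sign under 1 and 2 of 8 alternatives. The count of detected genes at least 1.5-fold higher, 0, became 3 with an offset of 1 and 3 without a filter on dim probe sets. It became 56 at a log2 size of 0.32, where the 8 lower became 59. A smaller size, a smaller offset and fewer filters can only keep or raise these counts, by construction. No paired analysis was possible because there was 1 array for each virus, and for that reason no replicate could be left out. Low signal limits Id1 and Id3, both under 2 times the floor of 85.9.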

Other observations

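Regulators that act on Id proteins or on the cell cycle exit that Id proteins oppose were read as values. Usp1, a deubiquitinase that stabilises Id proteins, was at 223 on both arrays (0.0013), and Fzr1, an activator of the ubiquitin ligase that targets Id proteins, read 447 on the control array and 384 on the HMGN1 array (-0.21), the largest difference among the members of these regulator lists. Of 8 listed inhibitors of cyclin-dependent kinases and retinoblastoma family genes 7 were analysed here and 6 detected. Of these 5 were higher and 1 lower, beside 60.1% and 38.4% of all detected genes. The list median was 0.098, against 0.027 for all detected genes. The retinoblastoma family genes are long, with Rb1 at 133 kb, Rbl1 at 58.6 kb and Rbl2 at 53.8 kb. The part of gene span in these values was not tested. Cdkn2a was highest, at 83.5 and 95.7 (0.17), near the floor, and Cdkn1b lowest, at 1150 and 1114 (-0.045). None of these genes reached a log2 difference of 0.32.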
